A study of Mus musculus with 2 samples.

Results

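Of the genes of cholesterol synthesis, 7 enzymes of the pathway and the transcription factor that drives it were followed in the mouse small intestine and colon. They were chosen by gene symbol (Hmgcs1, Idi1, Fdps, Fdft1, Sqle, Lss, Cyp51 and Srebf2) and make up 8 of the 18193 genes named on the arrays and 22 of the 45101 probe sets, a probe set being the group of short oligonucleotides that reports a transcript. Each gene is represented by its brightest probe set, the one with the highest mean of both arrays, and its other probe sets are given as well. The series held 2 Affymetrix Mouse Genome 430 2.0 arrays of total RNA, 1 from a colon biopsy and 1 from a small intestine biopsy of wild-type adult mice. The labels name neither a strain nor the number of mice behind an array, and they give no other allele or treatment for either tissue. With 1 array per tissue the differences have no replicate check, and none was tested.

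Cholesterol is built in the cytosol and endoplasmic reticulum from acetyl-CoA, by way of mevalonate, isoprenoid diphosphates, squalene and lanosterol. When sterols in the endoplasmic reticulum run low, the membrane protein encoded by Srebf2 is escorted to the Golgi and cut, and its released part binds sterol regulatory elements in the promoters of these enzymes, usually together with the factors NF-Y and Sp1. The gut epithelium makes cholesterol and, in the small intestine, also takes it up from bile and food.

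Promoter sequence is printed to show which of these elements lie near the starts of the genes. RefSeq start sites of the mouse assembly GRCm38.p6 gave a window of 300 bases, from 250 before the start to 50 after it, for 5 of the 8 genes (Hmgcs1, Idi1, Lss, Cyp51 and Srebf2), and windows of Sqle, Fdps and Fdft1 were not analysed here. The sterol regulatory element was searched as TCACNCCAC, the NF-Y box as CCAAT, the Sp1 box as GGGCGG and the E-box as CACGTG, each on both strands. The longest stretch below is the upstream part of the Hmgcs1 window (chr13:119690101-119690350, plus strand). The others are 60 bases that hold the NF-Y box nearest the start, for Idi1 (chr13:8885546-8885605, plus strand), Lss (chr10:76531508-76531567, plus strand), Cyp51 (chr5:4104702-4104761, minus strand) and Srebf2 (chr15:82147099-82147158, plus strand). All are written 5′ to 3′ in the direction of the gene, and capitals mark matches to the sterol regulatory element and to the NF-Y box, which reads ATTGG where it lies on the opposite strand.
Hmgcs1: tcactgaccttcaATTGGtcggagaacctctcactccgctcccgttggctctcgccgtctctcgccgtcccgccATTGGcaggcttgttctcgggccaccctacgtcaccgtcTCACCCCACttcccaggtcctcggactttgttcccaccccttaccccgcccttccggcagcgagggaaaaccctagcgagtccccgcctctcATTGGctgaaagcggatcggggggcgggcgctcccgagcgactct
Idi1: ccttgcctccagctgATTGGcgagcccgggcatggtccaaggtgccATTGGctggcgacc
Lss: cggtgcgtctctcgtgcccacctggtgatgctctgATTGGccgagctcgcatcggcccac
Cyp51: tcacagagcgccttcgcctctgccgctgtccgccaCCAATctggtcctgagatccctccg
Srebf2: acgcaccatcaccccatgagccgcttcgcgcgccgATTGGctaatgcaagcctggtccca

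Of these 5 windows, 1 held the sterol regulatory element, that of Hmgcs1, where it starts at position -137 from the start site. The element is found in 1.24% of 32851 RefSeq windows of the same length. An NF-Y box stood in 5 of 5 windows against 37.4% of all, and an Sp1 box in 5 of 5 against 35.7% of all. The upstream NF-Y box nearest the start began at position -45 in Hmgcs1, -14 in Idi1, -62 in Lss, -29 in Cyp51 and -135 in Srebf2. An E-box was in 0 of 5, against 7.15% of all windows. These are matches of letters in 300 bases and say nothing of sites outside the windows or of elements spelled differently. In the same assembly the genes without a window lie at chr15:59315092-59331193 (Sqle), chr3:89093588-89101967 (Fdps) and chr14:63145150-63181687 (Fdft1).

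**Figure D1:**
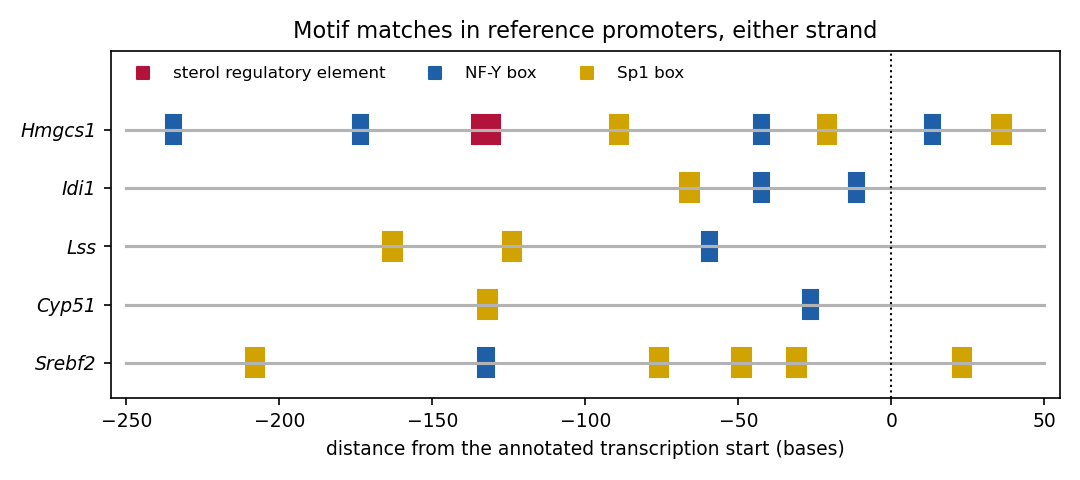
Positions of motif matches on either strand in the reference promoter windows of 5 genes, with the distance from the annotated start (dotted line) in bases on the horizontal axis. A sterol regulatory element (red) is marked for Hmgcs1, and all 5 genes carry NF-Y boxes (blue) and Sp1 boxes (yellow).

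All 8 genes lay above the background level of 5 on both arrays, and none differed by 3-fold or even 2-fold between the tissues by its brightest probe set. The largest difference was that of Fdft1, 1.95-fold higher in the colon. The size of 3-fold was taken after the study, whose authors chose it for a small number of samples. They applied it to sequencing values, with a penalty added for the tissue compared against. Here it was applied to array values without that penalty. Among all 11015 genes above background on either array, 11.2% reached 3-fold in one direction or the other and 24.9% reached 2-fold. By the brightest probe sets, 7 of the 8 genes were higher in the colon by some amount, against 53.2% of all genes above background, and the median difference (small intestine minus colon, log2) was -0.52, against -0.06 over those genes. The direction was not shared by all probe sets. In 4 of the 8 genes (Hmgcs1, Idi1, Lss and Srebf2) probe sets above background on both arrays lay in both directions. With the median of the differences over such probe sets, a choice made after seeing the data, 6 genes leaned to the colon and 2 to the small intestine, with a median of -0.22 over the 8. With the median over all probe sets, silent ones included, it was -0.06. In a biopsy, fewer cells of a type and less RNA per cell cannot be told apart.

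The enzyme at the entry of the pathway was bright on both arrays. Hmgcs1, which joins acetoacetyl-CoA and acetyl-CoA to HMG-CoA, had a log2 level of 13.05 in colon and 13.20 in small intestine, which is 1.11-fold higher in the small intestine. It was the one gene of the 8 that was higher there, and the sign turned to -0.01 when the arrays were centred on housekeeping genes. Of the 9813 genes that exceeded background in both tissues, 16.8% had a smaller difference.

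The enzymes that make and join isoprenoid units were lower in the small intestine by their brightest probe sets. Idi1 interconverts the pair of five-carbon isoprenoid isomers and had 11.82 in colon and 11.06 in small intestine, 1.69-fold higher in the colon. Fdps builds farnesyl diphosphate from them and had 6.40 in colon and 5.68 in small intestine, 1.65-fold higher in the colon. Fdft1, squalene synthase, commits farnesyl diphosphate to sterols and had 12.00 in colon and 11.03 in small intestine. The difference of Fdft1 exceeded that of 75.3% of the 9813 genes.

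The enzymes that turn squalene into sterols were closer between the tissues, with Lss as the exception. Sqle, squalene epoxidase, had 9.43 in colon and 9.35 in small intestine, a 1.06-fold difference. Lss closes the ring system to lanosterol and had 7.65 in colon and 6.86 in small intestine, 1.72-fold higher in the colon. Cyp51 removes a methyl group from lanosterol and had 10.07 in colon and 9.76 in small intestine, 1.24-fold higher in the colon. Srebf2, the regulator, had 6.18 in colon and 6.12 in small intestine (1.04-fold), and its difference of -0.06 became 0.00 after quantile normalization.

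**Figure D2:**
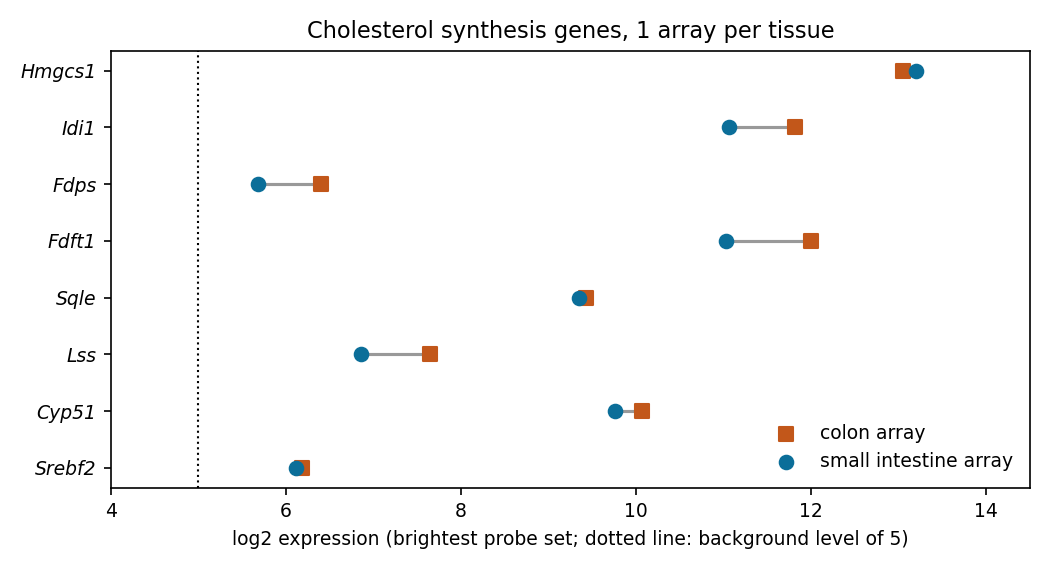
Log2 expression of the brightest probe set of each gene on the colon array (squares) and the small intestine array (circles), in the order of the pathway with the regulator Srebf2 last, with a dotted line at the background level of 5. Circles lie left of squares for 7 genes and right of it for Hmgcs1 (13.20 against 13.05). Distances between the genes are not to be read, since probe sets differ in brightness for the same amount of RNA.

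The only spread that 1 array per tissue allows is that between probe sets of a gene. Over 3533 genes with 2 or more probe sets above background on both arrays, the pooled SD of the log2 difference between probe sets of a gene was 0.54. The differences of Fdft1 (-0.96), Lss (-0.78), Idi1 (-0.76) and Fdps (-0.72) were larger than this SD, and those of Cyp51 (-0.31), Hmgcs1 (0.15), Sqle (-0.08) and Srebf2 (-0.06) were smaller. This SD comes from probe sets read on the same arrays, was not split into technical and other parts, and does not hold the variation between mice. With a background of 6 the difference of Fdps was -0.40, smaller in size than the SD. The second probe set of Idi1 had a difference of 1.38, in the other direction.

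The probe sets of a gene did not always point the same way. Of the 22 probe sets, 17 were above background on both arrays, 1 on the colon array alone and 4 on neither. Of the 17, 12 leaned to the colon and 5 to the small intestine, and 2 passed 2-fold and 0 passed 3-fold. Among all 15073 named probe sets above background on both arrays, 53.7% were higher in the colon and 22.3% passed 2-fold.

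Hmgcs1 and Idi1 had the widest spread. For Hmgcs1, the probe set 1433445_x_at, used above, stood beside 1433444_at with 12.51 in colon and 13.35 in small intestine. Another, 1433443_a_at, had 12.80 in colon and 12.47 in small intestine. The dimmer 1433446_at had 9.03 in colon and 7.45 in small intestine, 2.98-fold higher in the colon. The 4 differences thus ran from -1.57 to 0.83, a range of 2.41, and 11 of 263 genes with 4 such probe sets (4.18%) had a range at least as wide. The fifth probe set of Hmgcs1, 1441536_at, was below background on both arrays.

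For Idi1, 1451122_at was 1.69-fold higher in the colon, whereas 1423804_a_at had 9.20 in colon and 10.58 in small intestine, 2.61-fold higher in the small intestine. Their range of 2.14 was reached by 19 of 2353 genes with 2 such probe sets (0.81%). No direction between the tissues can therefore be given for Idi1. The pair of Srebf2 also disagreed in sign, since 1426744_at had 5.35 in colon and 5.89 in small intestine.

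The probe sets of Fdft1, Cyp51 and, in part, Lss were closer to each other. For Fdft1, 1448130_at had 9.27 in colon and 8.53 in small intestine, a difference of -0.74 beside -0.96 for the brightest. The other pair of Fdft1 probe sets lay below background on both arrays. For Cyp51, 1422533_at differed by -0.41, and 1422534_at had 5.30 in the colon and 4.40, below background, in the small intestine. For Lss, 1420013_s_at differed by -0.54 and the dim 1420014_at by 0.04. Fdps had 1 probe set above background and another, 1438150_at, at 2.87 on both arrays, and Sqle had a single probe set.

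**Figure D3:**
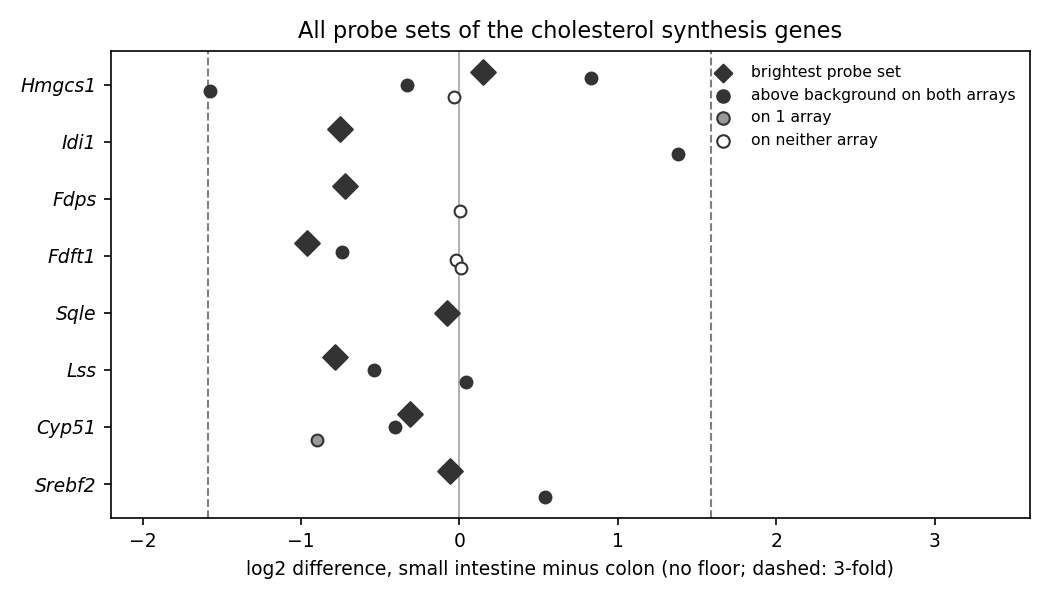
Small intestine minus colon, as a log2 difference, for each of the 22 probe sets, without a floor, with the brightest of each gene as a diamond and dashed lines at 3-fold. Filled points were above background on both arrays, grey on 1 and open on neither. The points of Hmgcs1 spread from -1.57 to 0.83 and those of Idi1 from -0.76 to 1.38, while the filled points of Fdft1 and Cyp51 lie close together on the colon side.

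Control probe sets showed that the arrays differed along the length of transcripts. Bacterial RNAs with a poly(A) tail are added to the sample before labelling and are read at their 5′ end, middle and 3′ end. At the 3′ end their 8 probe sets had a median difference of 0.26 (small intestine minus colon, log2). In the middle the median was -0.59, and at the 5′ end it was -2.30, where 8 of 8 probe sets were lower on the small intestine array, from -2.73 to -0.68. For mouse Gapdh the difference was -1.27 at the 5′ end and 0.02 at the 3′ end, and for mouse Actb it was 0.00 and 0.34. Hybridization spike-ins, which are added after labelling, had a median difference of 0.02, but those of bioC were lower on the small intestine array, down to -1.52. The files used here do not place the probe sets within the transcripts of the genes. The part of this gradient in the differences between the tissues, for the 8 genes and for the lists below, was therefore not tested. Nor was its part in the differences between probe sets of a gene.

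**Figure D4:**
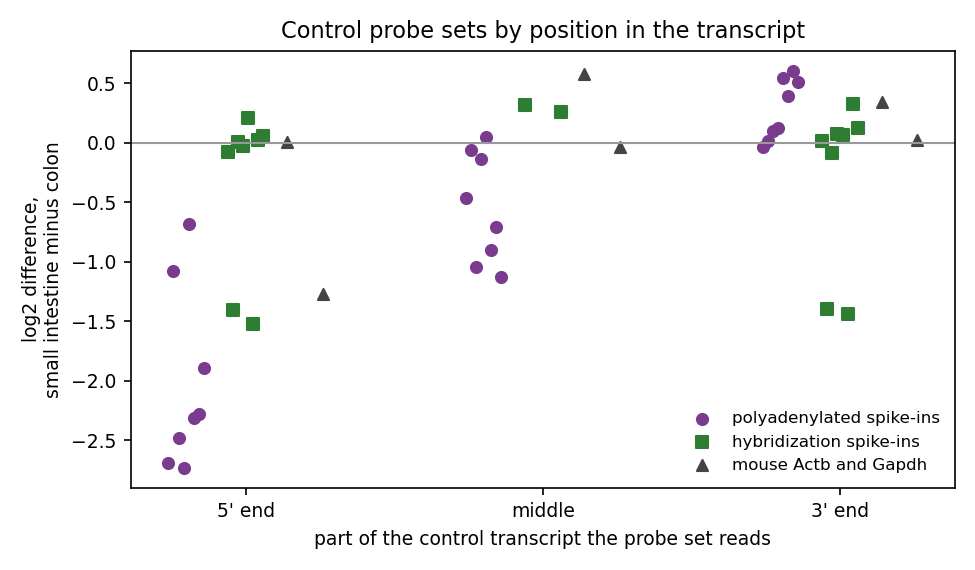
Small intestine minus colon, as a log2 difference, of control probe sets, grouped by the part of the transcript they read. Polyadenylated spike-ins (circles) lie near or above 0 at the 3′ end, with a median of 0.26, and at a median of -2.30 at the 5′ end. Hybridization spike-ins (squares) lie near 0 apart from those of bioC, and triangles are mouse Actb and Gapdh.

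The other enzymes of cholesterol synthesis differed by -1.22 to 0.82 on the log2 scale. Of 12 measured, 10 lay above background, 0 reached 3-fold, 1 passed 2-fold, and 7 leaned to the colon and 3 to the small intestine, with a median difference of -0.34. Dhcr7, which makes cholesterol from its last precursor, was the furthest apart, with 9.62 in colon and 8.40 in small intestine (2.33-fold). Hsd17b7 (-0.83) and Nsdhl (-0.72), both of the removal of methyl groups, were also higher in the colon. Sc5d, a sterol desaturase, had 9.85 in colon and 10.67 in small intestine (1.76-fold). Its second bright probe set differed by -0.35, and thus in the other direction.

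Of 11 genes of the control of SREBP that were measured, 0 were called at 3-fold, 9 leaned to the colon and 2 to the small intestine, with a median of -0.19. Insig1, which holds SREBP in the endoplasmic reticulum and is itself a target of it, had 10.97 on both arrays, and it is named here after its values were seen. Insig2 (-0.80), the regulator of fatty acid synthesis Srebf1 (-0.90) and the ubiquitin ligase Mylip (-0.95) were higher in the colon. Nr1h3, the oxysterol receptor LXR alpha, had 3.99 in colon and 6.19 in small intestine. Since the colon value was below background, the ratio is a lower bound of 2.29-fold and does not place Nr1h3 within 3-fold.

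In contrast, some sterol transporters differed strongly. Npc1l1, which takes up cholesterol from the gut lumen, had 3.27 in colon and 12.14 in small intestine, a ratio of at least 141-fold. Abcg5 and Abcg8 form the pump that returns sterols to the lumen. Abcg5 had 7.52 in colon and 11.61 in small intestine (17.1-fold), and Abcg8 had 3.42 in colon and 7.25 in small intestine (at least 4.77-fold). Abca1, which loads cholesterol onto apolipoprotein A-I, had 7.79 in colon and 9.92 in small intestine (4.38-fold), while its other probe sets were below background, so that its median over probe sets was 0.

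Vldlr, a receptor for triglyceride-rich lipoproteins, had 9.0 in colon and 6.94 in small intestine, 4.17-fold higher in the colon. Its other 5 probe sets were also lower on the small intestine array, where all 5 read below background, so that they give at most a lower bound of the fold. The second brightest had 6.33 in colon and 4.63 in small intestine. Of the 13 genes of cholesterol uptake, storage and export that were measured, 4 passed 3-fold towards the small intestine, as 5.71% of all genes above background did, and 1 towards the colon, as 5.49% did. The other 8 differed by less, and the list's median was -0.11. No direct test between this list and the synthesis genes was made.

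**Figure D5:**
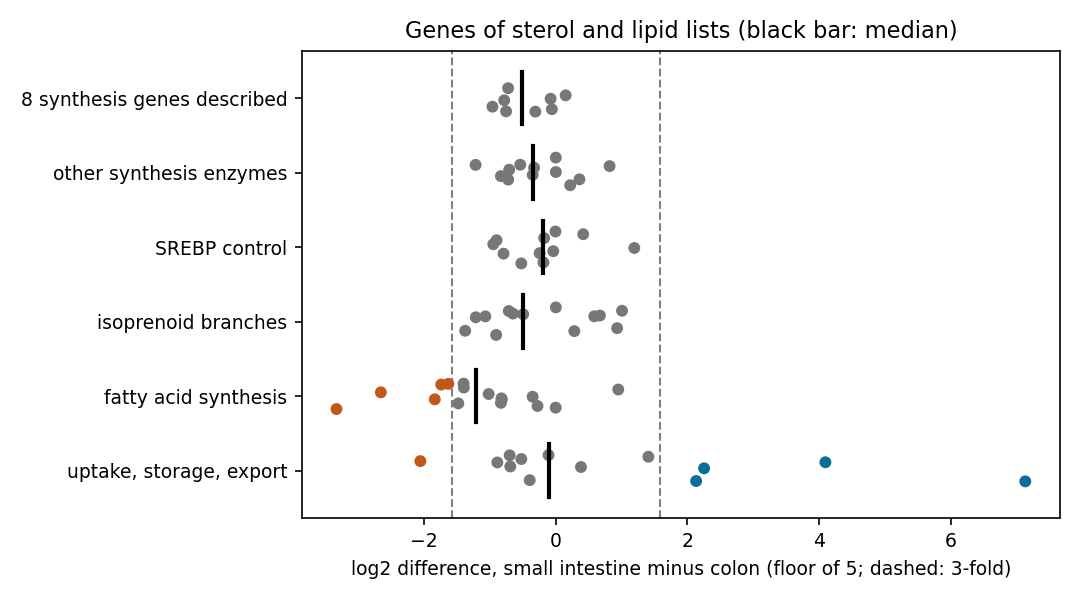
Each point is 1 gene of 1 of 6 lists, placed by its small intestine minus colon log2 difference (values under 5 set to 5), black bars are medians and dashed lines mark 3-fold. The 8 synthesis genes, the other synthesis enzymes, the SREBP control genes and the isoprenoid genes stay between the lines, where Nr1h3 is a lower bound. Points past 3-fold are blue for the small intestine, with Npc1l1 furthest right at 7.14, and orange for the colon, with Acsl3 furthest left at -3.33.

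Fatty acid synthesis, which shares acetyl-CoA and the SREBP family with the cholesterol pathway, was further towards the colon. Of 16 genes measured, 5 passed 3-fold towards the colon, against 5.49% of all genes above background, and 0 towards the small intestine, against 5.71%. By some amount 15 were higher in the colon, against 53.2% of all genes above background, and the median was -1.21. Acsl3, which activates long-chain fatty acids, had 11.90 in colon and 8.57 in small intestine (10.1-fold). Scd2 (6.32-fold) and Scd1 (3.58-fold) introduce a double bond into fatty acids, Acss2 (3.35-fold) makes acetyl-CoA from acetate, and Gpam (3.10-fold) starts glycerolipid synthesis. The second brightest probe sets of Acsl3 (-2.01) and Acss2 (-2.34) also passed 3-fold, and that of Scd1 (-0.51) did not. That of Scd2 was below background in the small intestine and that of Gpam on both arrays, so neither measures the fold.

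Marker lists were read for cell types of the gut and its surroundings, and for exocrine pancreas, which is not part of the gut wall. Of the enterocyte markers, 7 of 7 were past 3-fold in the small intestine, and 5 of 7 colonocyte markers were past it in the colon. The lists were chosen with earlier results of these data known, so these counts are no independent check of the labels. Epithelial genes had a median difference of 0.00 and a mean log2 level of 11.9 in colon and 12.0 in small intestine. Of 8 smooth muscle genes, 5 were past 3-fold in the colon, with a mean level of 10.3 in colon and 8.71 in small intestine. Of 8 exocrine pancreas genes, 8 were past 3-fold in the colon, with a mean level of 12.3 in the colon and, with values under 5 set to 5, 5.08 in small intestine, where 7 of 8 lay at background. Of 9 leukocyte genes, 5 were past 3-fold in the small intestine. With the same floor their mean levels were 6.36 in colon, where 3 lay at background, and 7.74 in small intestine, where 1 did. Enteric neurons and glia had 2 of 8 genes past 3-fold in the colon. Their mean levels, also floored, were 5.94 in colon, where 3 lay at background, and 5.23 in small intestine, where 5 did. Among 6 adipocyte genes, 3 at background on each array, Cidec had the highest difference, a ratio of at least 9.35-fold towards the small intestine, and Fabp4 the lowest, -0.77. The source of the pancreatic transcripts on the only colon array was not tested. Nor was the part of any of the listed cells in the differences of the cholesterol genes.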

How the data were processed

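The deposited values are log2 expression per probe set, normalized by the authors. GCRMA, which models background from the bases of a probe, stands in the submitters' processing notes, and RMA in the study's methods. Those methods place their arrays in another series, and whether they are the arrays used here is not settled. The sources used here give no version and do not say on which set of arrays the normalization ran. By its background model GCRMA can enlarge the fold of a dim probe set. RNA was extracted with a Qiagen kit, labelled with biotin and put on 1 array per tissue, so the number of arrays limits the precision. The values ran from 0.73 to 16.97 and were taken as they are.

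The platform annotation named the genes and gave 1 gene for 34945 probe sets. Those with several genes (932) and controls were left out. A gene took its brightest probe set over both arrays. Values below 5 were raised to 5 for differences, a fold against a value below 5 is a lower bound, and a gene was called at 3-fold. Genes named besides the 8 are those past 3-fold and, up to 4 per list, those with the largest difference, with Insig1 as an exception. Endings of probe set names mark probes shared with other sequences (_x), several genes (_s) or transcripts of 1 gene (_a). Members, lists and rules were chosen with earlier results of these data known. Alternatives were other background levels, folds, scalings and choices of probe set. The 3-fold rule was run on simulated data with planted changes well past 3-fold in bright genes, which does not test smaller differences. Python 3.11.15, numpy 2.4.6, pandas 2.3.3 and matplotlib 3.10.9 were used.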

Additional observations from a re-analysis of the deposited data

How the results depend on the processing

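None of the 8 cholesterol synthesis genes reached 3-fold under any of the background levels, scalings or choices of probe set tried. By the brightest probe sets and the deposited values none reached 2-fold. Idi1 did with the second brightest, and Fdft1 (-1.12) did when the arrays were centred on housekeeping genes. The median of the 8 ran from -0.68 with centring on housekeeping genes, which moved the median of all genes to -0.15, to -0.06 with the median over probe sets. With the second brightest probe set the median was 0, without Sqle, which has a single probe set. That 0 is the value of Fdps, whose second probe set lay below background on both arrays, and does not show equal expression. The choice of probe set moved single genes by more than the SD between probe sets. With the second brightest, Hmgcs1 was 0.83 (also without shared probe sets), Idi1 1.38, Srebf2 0.54 and Fdps 0, and with the median over probe sets Idi1 was 0.31, Fdps 0 and Fdft1 -0.38. Fdps and Fdft1 moved because probe sets at background entered. With the median over probe sets above background on both arrays, chosen after seeing the data, Idi1 was also 0.31.

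At 2-fold, 1 of the other synthesis enzymes was higher in the colon, 1 SREBP control gene in the small intestine (also 1 at 3-fold with a background of 4 or no floor), 1 isoprenoid gene on the small intestine side and 3 on the other, and 9 fatty acid genes in the colon. At 5-fold, uptake and export had 2 genes on the small intestine side and 0 on the colon side, and fatty acid synthesis had 2 on the colon side. With the second brightest probe set, 0 uptake and export genes passed 3-fold on the small intestine side, for which Npc1l1, Abcg5 and Abcg8 have none. On the colon side 0 did so with the second brightest, the median over probe sets or without shared probe sets. Fatty acid genes higher in the colon numbered 2 with the median over probe sets and 2 with the second brightest, and the list's median was then -0.57 and -0.20. Where these probe sets read below background in the small intestine (Vldlr, Scd2), the difference is a lower bound and a lost call does not show a smaller fold. With a background of 6 the lower bound of Abcg8 was 1.25, and Gpam was -1.56 after quantile normalization. No paired analysis was possible because each tissue has 1 array.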

Other observations

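The branches that use isoprenoid diphosphates for other products than sterols were measured as well. Of 13 genes, 0 reached 3-fold, 7 leaned to the colon and 6 to the small intestine, and the median difference was -0.50, or 0 with the median over probe sets. Pggt1b, a subunit of the enzyme that attaches geranylgeranyl groups to proteins, had 8.76 in colon and 7.38 in small intestine (2.60-fold higher in the colon). Ggps1, which makes geranylgeranyl diphosphate, had 8.99 in colon and 7.77 in small intestine (2.32-fold), and its 4 probe sets were all higher in the colon. The subunits of the enzyme that attaches geranylgeranyl groups to Rab proteins went apart. Rabggtb had 9.36 in colon and 8.29 in small intestine, and Rabggta had 5.11 in colon, near background, and 6.12 in small intestine.

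Of 9 proliferation genes, 2 passed 3-fold towards the small intestine and 0 towards the colon, with 7 leaning to the small intestine and a median of 0.28. Of 8 housekeeping genes, 0 reached 3-fold, and 5 leaned to the small intestine and 3 to the colon, from -0.96 to 1.44 with a median of 0.16.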
